A study of Homo sapiens with 12 samples.

Results

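The genes described here are 34 listed members of the protein-folding and quality-control machinery of the endoplasmic reticulum (ER): luminal chaperones, lectin chaperones, disulphide enzymes, the lectins and membrane proteins of ER-associated degradation (ERAD), and the stress sensors. Members were found by gene name in the deposited count table. All 34 had a row among its 58735 genes, and 33 were among the 17277 genes that passed the filter on low counts. DERL3 did not pass. RNA was sequenced from BCPAP, a cell line established from a human papillary thyroid carcinoma and grown in DMEM with 10% FBS, so every library came from 1 cell line. The groups were siNOX4 in hypoxia (1% oxygen), scrambled siRNA (siControl) in hypoxia, siNOX4 in normoxia (20% oxygen) and siControl in normoxia. Each had 3 libraries, which the submitters describe as separate transfections, and every library had received an siRNA. The sources used here do not state how long the cells were kept at 1% oxygen. The design asks what NOX4, a hydrogen peroxide-producing NADPH oxidase that sits largely in the ER and other internal membranes, contributes to the response to low oxygen.

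Secreted and membrane proteins enter the ER unfolded, are held by BiP (the product of HSPA5) and by the lectins calnexin and calreticulin, and gain disulphide bonds from protein disulphide isomerases, which the ERO1 oxidases recharge by passing electrons to oxygen. Proteins that fail to fold are trimmed by EDEM mannosidases, read by lectins such as OS9 and moved out through the SEL1L, HRD1 and derlin complex for degradation. When unfolded proteins build up, the sensors IRE1 (ERN1), PERK (EIF2AK3) and ATF6 raise the transcription of many of these genes, partly through the spliced form of XBP1. In thyroid follicular cells this machinery folds thyroglobulin, a large glycoprotein rich in disulphide bonds.

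The promoters carry the sequences through which this response is known to act, and they are shown because several members share them. RefSeq windows from 250 bases before to 50 bases after the start (GRCh38.p14) were found for 31 members and were searched on both strands, as were all 35116 windows of 27305 genes. No window was matched for PDIA3, DERL1 and DERL3. The ER stress response element, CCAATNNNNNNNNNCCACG, stood in the windows of 8 of the 31 members (25.8%) and of 25 of all genes (0.0916%). This element was first described in genes of this kind, so the contrast is a property of the list. The 8 genes were HSPA5, HSP90B1, CALR, CANX, PDIA6, ERO1B, CRELD2 and XBP1. Their sites are given below, 5′ to 3′ on the strand that reads CCAAT, with the fixed letters in capitals and the spacer in lower case. They differ only in the spacer, and HSP90B1 has a pair of them with different spacers. CANX matches began 189, 151 and 9 bases before a start, all with the same spacer. Whether these are separate sites or the same site read from different starts was not tested.
HSPA5: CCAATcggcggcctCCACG
HSP90B1, upstream site: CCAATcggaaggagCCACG
HSP90B1, downstream site: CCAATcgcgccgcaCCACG
PDIA6: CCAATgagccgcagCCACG
ERO1B: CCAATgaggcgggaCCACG
CRELD2: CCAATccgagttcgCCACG
CALR: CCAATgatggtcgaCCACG
CANX: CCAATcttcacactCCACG
XBP1: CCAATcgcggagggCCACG

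The HSPA5 site began 66 bases before the start, and the sites of PDIA6, CRELD2 and XBP1 began 86, 80 and 52 bases before it. The shorter element ERSE-II, ATTGGNCCACG, stood in 3 members, HERPUD1, HYOU1 and SDF2L1, and in 19 of all genes (0.0696%). The UPRE letters TGACGTGG were found in DNAJC10, HYOU1 and TXNDC5, against 0.927% of all genes. The core of the amino acid response element, TGATGCAA, through which ATF4 and CHOP are known to act, was found in 1 member, HERPUD1, against 1.08% of genes. The 5 letters of the hypoxia response core, ACGTG, were found in 18 of the 31 members (58.1%) and in 24.9% of all genes. These letters also lie inside the UPRE, and across the end of ERSE-II where a T follows. A match describes letters in a window and does not show that a factor binds.

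The 250 bases before the start are printed for 3 members with different arrangements of these letters, each on its gene's own strand, with every match in capitals. HSPA5 (chr9:125241344-125241593, minus strand) holds 1 exact match to the ER stress response element and no hypoxia core. Inexact copies of an element were not searched for. HERPUD1 (chr16:56931892-56932141, plus strand) holds, in order, the amino acid response core on the opposite strand, the hypoxia core read on both strands, and ERSE-II running into a further hypoxia core. ERO1A (chr14:52695559-52695808, minus strand) holds 1 hypoxia core, on the opposite strand, and no exact match to a stress element. The starts are those of RefSeq. By the gene bounds of the count table, the ERO1A window lies wholly inside the gene, whose 5′ end is at 52695900. The HERPUD1 window lies partly inside its gene, which starts at 56932048. Bases upstream of the ERO1A end at 52695900 are thus not in the window.
HSPA5: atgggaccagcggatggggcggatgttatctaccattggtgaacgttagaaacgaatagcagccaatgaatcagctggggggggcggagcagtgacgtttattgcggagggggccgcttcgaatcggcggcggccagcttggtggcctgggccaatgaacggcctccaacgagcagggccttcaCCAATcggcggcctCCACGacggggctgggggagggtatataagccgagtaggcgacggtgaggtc
HERPUD1: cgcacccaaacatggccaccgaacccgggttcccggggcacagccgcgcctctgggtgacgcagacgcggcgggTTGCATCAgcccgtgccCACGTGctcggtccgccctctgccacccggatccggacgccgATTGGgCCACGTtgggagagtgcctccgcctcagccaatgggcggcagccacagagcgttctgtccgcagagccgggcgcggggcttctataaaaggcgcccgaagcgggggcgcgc
ERO1A: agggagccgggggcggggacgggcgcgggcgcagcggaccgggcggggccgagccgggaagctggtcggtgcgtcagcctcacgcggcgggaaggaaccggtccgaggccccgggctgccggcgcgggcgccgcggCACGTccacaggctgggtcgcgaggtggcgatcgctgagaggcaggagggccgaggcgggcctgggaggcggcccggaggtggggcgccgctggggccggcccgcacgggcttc

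Summed counts were 16559386 to 21282835 per library. NOX4 itself was counted 4, 3 and 4 times with siNOX4 and 17, 8 and 13 times with siControl in hypoxia, and 1, 5 and 3 times with siNOX4 and 8, 13 and 6 times with siControl in normoxia, so each siNOX4 library lay below each siControl library at its oxygen level. The siControl normoxia libraries did not resemble each other. The biological coefficient of variation within that group was 31.7%, against 8.58% for siNOX4 hypoxia, 5.33% for siControl hypoxia and 7.07% for siNOX4 normoxia. Of the 33 tested members, 23 in siControl normoxia replicate 1 and 25 in replicate 3 lay below the range of the siNOX4 normoxia libraries, and 7 in each lay above it. In replicate 2, 21 members lay within that range, 4 below and 8 above. Member log2 fold changes for hypoxia in siControl cells and siNOX4 in normoxia are therefore given with all 3 libraries and with replicate 2 alone. Replicate 2 alone was chosen as a baseline after the data were seen. It is the siControl normoxia library nearest the siNOX4 normoxia libraries, so this choice itself draws the comparisons of both siRNAs together. The thyroid factors PAX8, NKX2-1 and FOXE1 were present at 20.2 to 1735 CPM (TMM-scaled counts over library size, on the usual CPM scale), with the highest PAX8 in siControl normoxia, while TG and TSHR stayed at or below 0.318 CPM. Summed fibroblast markers (7 genes) reached 28.4 CPM, endothelial markers (4) 33.7 CPM and leukocyte markers (4) 7.56 CPM, in each case highest in a siControl normoxia library. Within the endothelial list PECAM1 alone reached 30.6 CPM, while CDH5 and VWF stayed at or below 0.670 CPM and KDR at or below 3.05 CPM. Within the leukocyte list CD14 alone reached 7.14 CPM, while PTPRC, CD68 and CD3E stayed at or below 0.495 CPM. The highest fibroblast genes were COL1A1 at up to 11.8 CPM and COL3A1 at up to 11.4 CPM. What part these markers have in the results was not tested.

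Taken per kilobase of the authors' gene length, so that genes can be compared, calreticulin (CALR) and BiP (HSPA5) had the highest mean levels over the 12 libraries, both at 238 CPM per kb. GRP94 (HSP90B1) followed at 132 and calnexin (CANX) at 113 CPM per kb, then PDIA3 at 63.4, XBP1 at 43.1, ERO1A at 40.9 and PDIA6 at 40.4 CPM per kb. The sensors were far lower, with EIF2AK3 at 6.37, ATF6 at 4.59 and ERN1 at 2.07 CPM per kb. At the foot of the list were ERO1B at 1.97, CRELD2 at 1.26 and DERL3 at 0.0889 CPM per kb. The order at the top changed with the group, since HSPA5 stood above CALR in siNOX4 normoxia (315 against 270.1 CPM per kb) and below it in siNOX4 hypoxia (193 against 226 CPM per kb).

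The summed level of the 34 members was 4815, 5033 and 4959 CPM in the siNOX4 hypoxia libraries and 5243, 5131 and 5081 CPM in the siControl hypoxia libraries. It was 6069, 6119 and 5864 CPM in siNOX4 normoxia and 4344, 5981 and 4558 CPM in siControl normoxia. Both hypoxia groups thus lay below siNOX4 normoxia and siControl normoxia replicate 2, and above siControl normoxia replicates 1 and 3. In these bulk libraries, fewer cells that express a gene and less of its RNA per cell cannot be told apart.

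**Figure D1:**
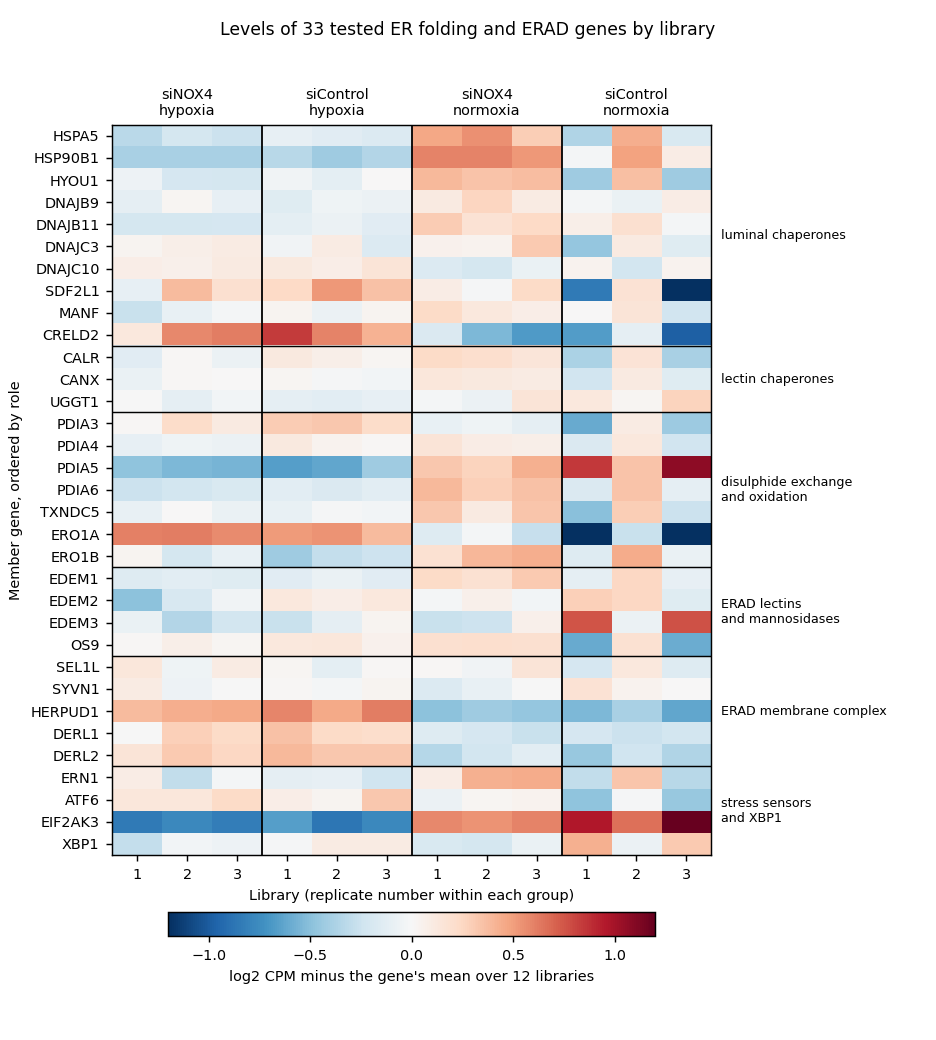
Level of each of the 33 tested members (rows, by role) in each of the 12 libraries (columns), as log2 CPM relative to the member's mean over all libraries. The columns of siControl normoxia replicates 1 and 3 differ from replicate 2, whose column looks like those of siNOX4 normoxia.

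Hypoxia raised ERO1A, CRELD2, HERPUD1, DERL1 and DERL2 and lowered HSP90B1, PDIA5, ERO1B and EIF2AK3 with both siRNAs, while other members were called in 1 siRNA or in neither. In siNOX4 cells, 10 of the 33 members were called lower in hypoxia than in normoxia and 6 higher, at an adjusted p under 0.05 over all genes tested, where 27.8% of all genes were called lower and 28.8% higher. In siControl cells, 6 members were called lower and 8 higher, against 27.6% and 25.7% of all genes. The share of members called was thus near that of all genes for lower calls in siNOX4 cells and higher calls in siControl cells. It was smaller than that of all genes for higher calls in siNOX4 cells and lower calls in siControl cells. Whether these shares differ from the background was not tested. Upper-quartile scaling moved the median of all genes to 0.11 in each hypoxia comparison. It gave 7 members lower and 6 higher in siNOX4 cells, where 4218 and 5523 of all 17277 genes were called. In siControl cells it gave 4 members lower and 11 higher, where 3961 and 5287 genes were called. The median log2 fold change of the members was -0.16 in siNOX4 cells, beside 0.03 over all genes, and 0.04 in siControl cells, beside -0.01 over all genes.

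The hypoxia comparisons of the 2 siRNAs share no library. No member was called in opposite directions, and 12 were called in neither. The log2 fold changes had the same sign for 23 of 33 members (Pearson r = 0.87, Spearman rho = 0.75, across genes, which are not independent replicates). With siControl normoxia replicate 2 alone as the baseline, 11 members were called lower in siControl cells and 6 higher, where 26.8% and 26.3% of all genes were called. Then 31 of 33 signs matched those of siNOX4 cells, as did all 6 members called higher there and 9 of the 10 called lower. Without any siControl normoxia library in the fit, 18 of 34 members were called lower and 8 higher in siNOX4 cells. DERL3 passed the filter in that fit, and 34.6% and 35.9% of all genes were called. The authors' deposited table had 16 members lower and 7 higher at an adjusted p under 0.05 in siNOX4 cells, where 10787 of 30263 genes were. Among them were CALR, CANX, ERN1, OS9, PDIA3, PDIA4 and TXNDC5, not called there in the main fit. In siControl cells it had 4 lower and 7 higher, where 7490 of 30743 genes were.

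**Figure D2:**
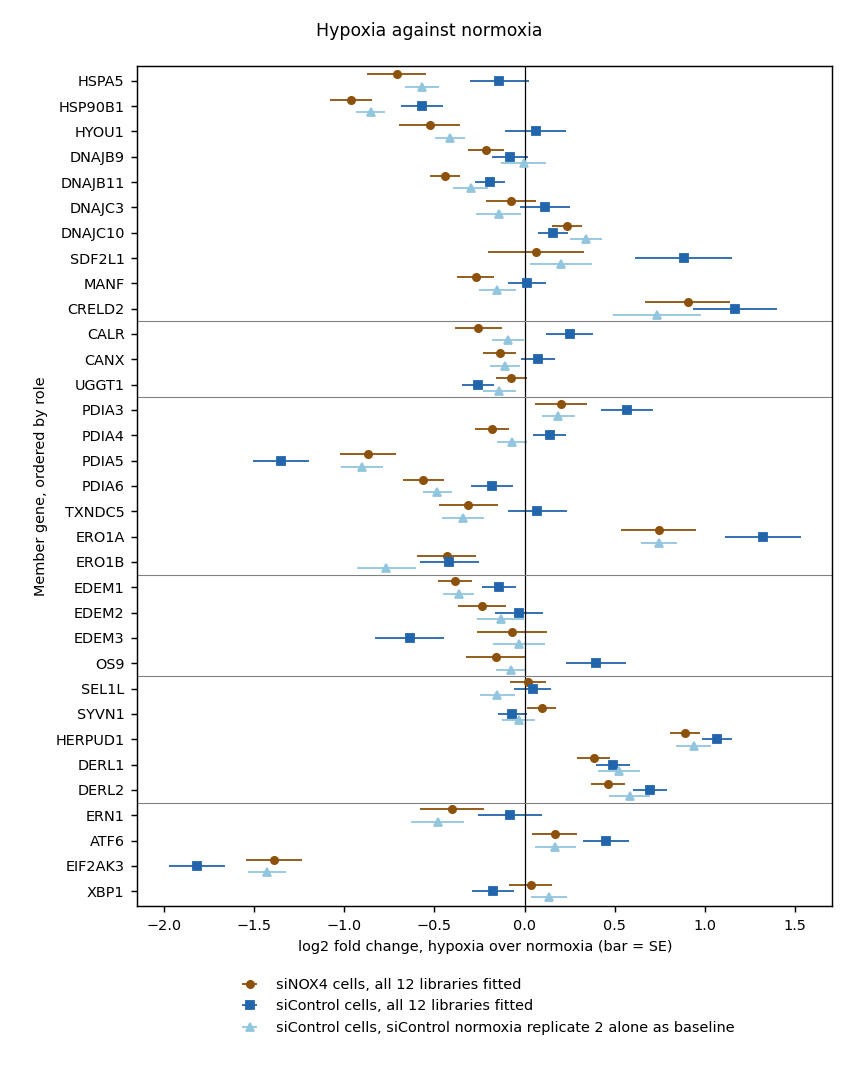
Log2 fold change of each tested member, hypoxia over normoxia, with its standard error, in siNOX4 cells, in siControl cells with all libraries fitted, and in siControl cells with replicate 2 alone as normoxia baseline. EIF2AK3 lies farthest to the left, and ERO1A, CRELD2 and HERPUD1 to the right in both siRNAs.

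Among the 10 luminal chaperones and co-chaperones, 5 were called lower and 2 higher in hypoxic siNOX4 cells, and 1 lower and 2 higher in hypoxic siControl cells (4 lower and 2 higher there with replicate 2 alone). Their summed level was 1603 ± 30.0 CPM in siNOX4 hypoxia and 1703 ± 28.8 CPM in siControl hypoxia, against 2586 ± 128 CPM in siNOX4 normoxia and 1984 ± 471 CPM in siControl normoxia (SD, n = 3 each). HSPA5 (ENSG00000044574, chromosome 9, 125234853 to 125241330, minus strand, in GENCODE 29 on GRCh38) encodes BiP, the ER Hsp70 that also holds the sensors inactive. HSPA5 was at 723, 780.4 and 757 CPM in siNOX4 hypoxia and at 844, 824 and 808 CPM in siControl hypoxia. In normoxia it was at 1249, 1328 and 1114 CPM with siNOX4 and at 705, 1226 and 799 CPM with siControl. The siNOX4 hypoxia libraries all lay below the siNOX4 normoxia libraries, whereas the siControl hypoxia libraries lay between siControl normoxia replicates 2 and 3. The log2 fold change was -0.71 (SE 0.16, adjusted p = 0.00279) in siNOX4 cells. In siControl cells it was -0.14 (SE 0.16, adjusted p = 0.489), and -0.57 (adjusted p = 2.9e-05) with replicate 2 alone.

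HSP90B1 (ENSG00000166598, chromosome 12, 103930107 to 103953645, plus strand) encodes GRP94, the ER Hsp90. It was at 453, 455 and 455 CPM in siNOX4 hypoxia and at 473, 442 and 467 CPM in siControl hypoxia. In normoxia it was at 901, 899.9 and 852 CPM with siNOX4 and at 583, 833 and 632 CPM with siControl. Every hypoxia library of either siRNA lay below every normoxia library. It fell by 0.96 on the log2 scale in siNOX4 cells (SE 0.12, adjusted p = 2.7e-05) and by 0.57 in siControl cells (SE 0.12, adjusted p = 0.00131). Replicate 2 alone gave -0.85 in siControl cells (adjusted p = 2.0e-08).

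HYOU1, the ER nucleotide exchange factor of BiP, fell in siNOX4 cells by 0.52 on the log2 scale (SE 0.17, adjusted p = 0.0185), and this call was lost in 3 of the 12 fits that left out 1 library. In siControl cells its log2 fold change was 0.06 (adjusted p = 0.777) with all libraries and -0.41 (adjusted p = 3.5e-04) with replicate 2 alone, so its direction turned with that choice. DNAJB11, a J-domain co-chaperone of BiP, fell in siNOX4 cells by 0.44 (adjusted p = 7.0e-04), with -0.19 (adjusted p = 0.072) in siControl cells. Replicate 2 alone gave -0.30 there (adjusted p = 0.013), past the threshold. MANF, a secreted ER stress protein that binds BiP, fell by 0.27 in siNOX4 cells (adjusted p = 0.0406), a call held in 4 of 12 such fits, and siControl cells gave 0.01 with all libraries and -0.15 with replicate 2 alone, called in neither. DNAJC10, a J-domain protein that reduces disulphides, rose by 0.24 in siNOX4 cells (adjusted p = 0.0314, held in 7 of 12), beside 0.16 (adjusted p = 0.137) in siControl cells. DNAJC10 was called higher there too with replicate 2 alone (0.34, adjusted p = 0.0031). The J-domain proteins DNAJB9 and DNAJC3 were called in neither siRNA, with log2 fold changes of -0.21 and -0.08 in siNOX4 cells and -0.08 and 0.11 in siControl cells (0.00 and -0.14 with replicate 2 alone, not called).

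CRELD2, an ER protein whose gene is known to respond to ER stress, was the luminal member that rose with both siRNAs. CRELD2 (ENSG00000184164, chromosome 22, 49918167 to 49927540, plus strand) was at 6.57, 8.96 and 9.22 CPM in siNOX4 hypoxia and at 10.8, 9.07 and 8.02 CPM in siControl hypoxia. In normoxia it was at 5.34, 4.13 and 3.75 CPM with siNOX4 and at 3.78, 5.57 and 3.05 CPM with siControl. No hypoxia library fell within the normoxia range. The log2 fold change was 0.90 (SE 0.24, adjusted p = 0.00566) in siNOX4 cells and 1.17 (SE 0.23, adjusted p = 0.00121) in siControl cells, and 0.73 (adjusted p = 0.0155) in siControl cells with replicate 2 alone. SDF2L1, a partner of DNAJB11, was at 12.7, 17.6 and 15.4 CPM in siNOX4 hypoxia and at 16, 19.4 and 17.3 CPM in siControl hypoxia. In normoxia SDF2L1 was at 14.4, 13.4 and 15.8 CPM with siNOX4 and at 7.50, 15.3 and 5.85 CPM with siControl. The siNOX4 groups overlapped (log2 fold change 0.06, adjusted p = 0.849), and the call in siControl cells (0.88, SE 0.27, adjusted p = 0.0155) ended with replicate 2 alone (0.20, adjusted p = 0.33).

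Of the 3 lectin chaperones and glycan checkers, 1 was called lower, in siControl cells, and none there with replicate 2 alone. CALR and CANX, which hold glycoproteins that carry 1 glucose, were called in neither siRNA. Their log2 fold changes were -0.26 and -0.14 in siNOX4 cells and 0.25 and 0.08 in siControl cells (-0.09 and -0.11 with replicate 2 alone). In siNOX4 cells every hypoxia library lay below every normoxia library for both genes. Means there were 614 against 733 CPM for CALR and 695 against 764 CPM for CANX. UGGT1, which puts that glucose back on unfolded glycoproteins, was called lower in siControl cells (log2 fold change -0.26, SE 0.09, adjusted p = 0.0244, held in 8 of 12 fits with 1 library left out). Replicate 2 alone gave -0.14 (adjusted p = 0.21), and siNOX4 cells gave -0.07 (adjusted p = 0.489).

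The 7 disulphide enzymes divided by member, with ERO1A rising and PDIA5, PDIA6 and ERO1B falling in siNOX4 cells, and with ERO1A and PDIA3 rising and PDIA5 and ERO1B falling in siControl cells. ERO1A (ENSG00000197930, chromosome 14, 52639916 to 52695900, minus strand) encodes the oxidase that recharges protein disulphide isomerases and yields hydrogen peroxide, and is a known target of hypoxia-inducible factor. ERO1A was at 429.9, 433 and 419.8 CPM in siNOX4 hypoxia and at 402, 411 and 367 CPM in siControl hypoxia. In normoxia it was at 254, 278 and 233 CPM with siNOX4 and at 119, 235 and 118 CPM with siControl. Every hypoxia library lay above every normoxia library. The log2 fold change was 0.74 (SE 0.21, adjusted p = 0.00853) in siNOX4 cells and 1.32 (SE 0.21, adjusted p = 2.2e-04) in siControl cells. With replicate 2 alone it was 0.75 in siControl cells (adjusted p = 2.7e-06).

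ERO1B, the second ERO1 oxidase, stood at a small part of the level of ERO1A (1.97 against 40.9 CPM per kb) and moved the other way. Its log2 fold change was -0.43 (SE 0.16, adjusted p = 0.0390, held in 5 of 12 fits) in siNOX4 cells and -0.42 (SE 0.16, adjusted p = 0.0488, held in 2 of 12) in siControl cells. With replicate 2 alone it was -0.77 in siControl cells (adjusted p = 4.4e-04). PDIA5, a less studied member of the isomerase family, was at 19.7, 18.9 and 18.6 CPM in siNOX4 hypoxia and at 17.3, 17.8 and 20.4 CPM in siControl hypoxia. In normoxia PDIA5 (ENSG00000065485, chromosome 3, 123067062 to 123225227, plus strand) was at 34.4, 33 and 36.7 CPM with siNOX4 and at 49.2, 34.6 and 57.8 CPM with siControl. The groups did not overlap in either siRNA. PDIA5 fell by 0.87 in siNOX4 cells (SE 0.15, adjusted p = 4.9e-04) and by 1.35 in siControl cells (SE 0.16, adjusted p = 1.9e-05), with -0.90 (adjusted p = 1.6e-06) for replicate 2 alone.

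PDIA6, an isomerase known to bind BiP, was at 137, 140.5 and 144 CPM in siNOX4 hypoxia, against 214, 199 and 208 CPM in siNOX4 normoxia. It fell by 0.56 (SE 0.12, adjusted p = 0.00132) in siNOX4 cells. In siControl cells PDIA6 gave -0.18 (adjusted p = 0.205) with all libraries and -0.48 (adjusted p = 3.4e-05) with replicate 2 alone. PDIA3, the isomerase that works with calnexin and calreticulin, was at 327, 331 and 307 CPM in siControl hypoxia, against 174, 283 and 195 CPM in siControl normoxia. Its call in siControl cells (log2 fold change 0.57, SE 0.14, adjusted p = 0.0053) ended with replicate 2 alone (0.19, adjusted p = 0.088), and siNOX4 cells gave 0.20 (adjusted p = 0.251). PDIA4 and TXNDC5, further isomerases, were called in neither siRNA, with log2 fold changes of -0.18 and -0.31 in siNOX4 cells and 0.14 and 0.07 in siControl cells. With replicate 2 alone, PDIA4 gave -0.07 (not called) and TXNDC5 was called lower in siControl cells (-0.34, adjusted p = 0.0164), a turn in direction.

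**Figure D3:**
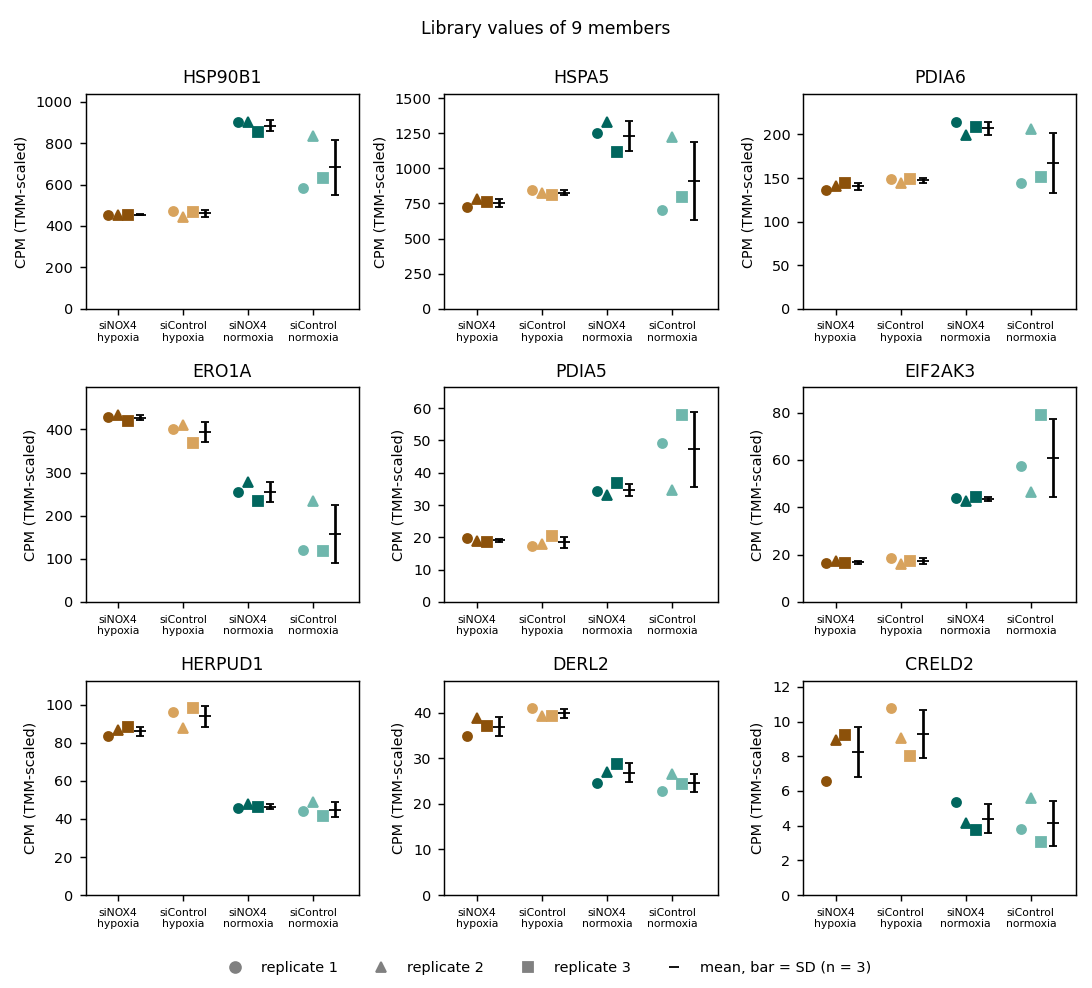
CPM of 9 members in each library of siNOX4 hypoxia, siControl hypoxia, siNOX4 normoxia and siControl normoxia, with the mean and SD of each group (n = 3). HSP90B1, PDIA5 and EIF2AK3 are lower, and ERO1A, HERPUD1, DERL2 and CRELD2 higher, in every hypoxia library than in any normoxia library of the same siRNA.

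The 4 lectins and mannosidases of ERAD had a summed level of 304 ± 4.31 CPM in siNOX4 hypoxia and 323 ± 5.48 CPM in siControl hypoxia, against 354 ± 6.64 CPM in siNOX4 normoxia and 300.2 ± 51.2 CPM in siControl normoxia. EDEM1, which is known to speed the disposal of misfolded glycoproteins, fell by 0.39 in siNOX4 cells (SE 0.10, adjusted p = 0.00432), with -0.14 (adjusted p = 0.227) in siControl cells and -0.37 (adjusted p = 0.0011) there with replicate 2 alone. EDEM3, a mannosidase of the same family, was at 25.9, 21.4 and 23.4 CPM in siNOX4 hypoxia and at 22.7, 25.4 and 27.8 CPM in siControl hypoxia. In normoxia EDEM3 (ENSG00000116406, chromosome 1, 184690231 to 184754913, minus strand) was at 22.7, 23.0 and 28.5 CPM with siNOX4 and at 46.0, 25.9 and 46.2 CPM with siControl. For this gene siControl normoxia replicates 1 and 3 stood above all other libraries. The call in siControl cells (log2 fold change -0.64, SE 0.19, adjusted p = 0.0137) ended without them (-0.03, adjusted p = 0.87), and siNOX4 cells gave -0.07 (adjusted p = 0.773). EDEM2, which makes the first cut of the glycan, and OS9, the lectin that hands clients to SEL1L, were called in neither siRNA. Their log2 fold changes were -0.24 and -0.16 in siNOX4 cells and -0.03 and 0.40 in siControl cells (-0.13 and -0.08 with replicate 2 alone, not called).

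In the ERAD membrane complex 3 of the 5 tested members, HERPUD1, DERL1 and DERL2, rose in hypoxia with either siRNA, also with replicate 2 alone, and none was called lower. Its summed level was 406 ± 9.02 CPM in siNOX4 hypoxia and 409 ± 15.9 CPM in siControl hypoxia, against 338 ± 14.8 CPM in siNOX4 normoxia and 330.3 ± 21.8 CPM in siControl normoxia. HERPUD1 (ENSG00000051108, chromosome 16, 56932048 to 56944863, plus strand) encodes a ubiquitin-like membrane protein that joins HRD1 to the derlins and is known as a gene of the stress response. HERPUD1 was at 83.6, 86.9 and 88.2 CPM in siNOX4 hypoxia and at 96.3, 87.7 and 98.1 CPM in siControl hypoxia. In normoxia it was at 45.6, 47.7 and 46.4 CPM with siNOX4 and at 44.0, 49.1 and 41.7 CPM with siControl. The 3 siControl normoxia libraries lay close together for this gene, and the groups were far apart. The log2 fold change was 0.89 (SE 0.08, adjusted p = 4.0e-06) in siNOX4 cells and 1.07 (SE 0.08, adjusted p = 1.1e-06) in siControl cells, with 0.94 (adjusted p = 7.5e-08) for replicate 2 alone.

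DERL2 (ENSG00000072849, chromosome 17, 5471251 to 5486811, minus strand) encodes a derlin, one of the rhomboid-like proteins through which ERAD clients leave the ER. It was at 34.9, 38.8 and 37.1 CPM in siNOX4 hypoxia and at 40.9, 39.3 and 39.2 CPM in siControl hypoxia. In normoxia DERL2 was at 24.7, 27.0 and 28.8 CPM with siNOX4 and at 22.8, 26.6 and 24.4 CPM with siControl, below every hypoxia library. It rose by 0.46 (SE 0.10, adjusted p = 0.00137) in siNOX4 cells and by 0.70 (SE 0.10, adjusted p = 7.9e-05) in siControl cells, with 0.58 (adjusted p = 2.0e-04) for replicate 2 alone. DERL1, a related derlin, rose by 0.38 (SE 0.09, adjusted p = 0.00386) in siNOX4 cells and by 0.49 (SE 0.09, adjusted p = 8.2e-04) in siControl cells, and by 0.52 there with replicate 2 alone. SYVN1, the ubiquitin ligase HRD1, and SEL1L, its scaffold, were called in neither siRNA. Their log2 fold changes were 0.10 and 0.02 in siNOX4 cells and -0.07 and 0.04 in siControl cells (-0.03 and -0.15 with replicate 2 alone, not called). DERL3, the derlin that did not pass the filter, had 10, 14 and 10 counts in siNOX4 hypoxia and 7, 11 and 4 in siControl hypoxia, against 5, 4 and 1 in siNOX4 normoxia and 1, 5 and 3 in siControl normoxia.

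Among the 33 tested members, the sensor gene EIF2AK3 had the largest fitted log2 fold change in size in both siRNAs. EIF2AK3 (ENSG00000172071, chromosome 2, 88556741 to 88627576, minus strand) encodes PERK, the kinase that slows translation by phosphorylating eIF2 alpha. It was at 16.3, 17.2 and 16.5 CPM in siNOX4 hypoxia and at 18.6, 16.1 and 17.2 CPM in siControl hypoxia. In normoxia EIF2AK3 was at 43.9, 42.7 and 44.4 CPM with siNOX4 and at 57.3, 46.6 and 78.8 CPM with siControl. All 6 hypoxia libraries lay between 16.1 and 18.6 CPM, far below the normoxia libraries. The log2 fold change was -1.39 (SE 0.16, adjusted p = 1.5e-05) in siNOX4 cells and -1.82 (SE 0.16, adjusted p = 2.1e-06) in siControl cells, with -1.43 (adjusted p = 5.1e-10) for replicate 2 alone.

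ATF6, which is cut in the Golgi to release a transcription factor, was called higher in siControl cells (log2 fold change 0.45, SE 0.13, adjusted p = 0.0093). That call ended with replicate 2 alone (0.17, adjusted p = 0.22), and siNOX4 cells gave 0.17 (adjusted p = 0.273). ERN1, the sensor that splices XBP1 mRNA, gave -0.40 (adjusted p = 0.0684) in siNOX4 cells and -0.08 (adjusted p = 0.72) in siControl cells, where replicate 2 alone gave -0.48 (adjusted p = 0.0093). XBP1 (ENSG00000100219, chromosome 22, 28794555 to 28800597, minus strand) was at 106, 126 and 124 CPM in siNOX4 hypoxia and at 128, 138 and 139 CPM in siControl hypoxia. In normoxia XBP1 was at 114, 112 and 122 CPM with siNOX4 and at 174, 123 and 161 CPM with siControl. The siNOX4 groups overlapped (0.03, adjusted p = 0.827), and the siControl groups did so too (-0.18, adjusted p = 0.228; 0.13, adjusted p = 0.27 with replicate 2 alone). Counts per gene do not tell spliced from unspliced XBP1 mRNA, and say nothing of the cleavage of ATF6 or the phosphorylation of PERK.

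Members with the same promoter letters did not share a direction in hypoxia. Of the 8 with an ER stress response element, HSPA5, HSP90B1, PDIA6 and ERO1B were called lower in hypoxic siNOX4 cells, CRELD2 was called higher, and CALR, CANX and XBP1 were not called. Of the 3 with ERSE-II, HERPUD1 was called higher, HYOU1 lower, and SDF2L1 was not called. The hypoxia core stood in the windows of ERO1A and HERPUD1, which rose with both siRNAs, and in those of EIF2AK3, PDIA5 and HSP90B1, which fell with both.

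Silencing NOX4 in hypoxia gave no member call. The log2 fold changes of the 33 members ran between -0.35 (EDEM2) and 0.23 (ERO1B), with a median of -0.07, beside 0.00 over all genes. By edgeR's quasi-likelihood test 0 members were called, as were 0.0% of all genes. At an unadjusted p under 0.05 by that test there was 1 member, EDEM2, beside 448 of all 17277 genes. DESeq2 and limma-voom also called 0 members. EDEM2 was at 20.2, 24.9 and 27.6 CPM with siNOX4 and at 31.1, 30.1 and 31.1 CPM with siControl (log2 fold change -0.35, SE 0.13, adjusted p = 1.00). With no siControl normoxia library in the fit, 0.101% of genes were called and no member was. The libraries of the 2 siRNAs did not overlap for 8 members that lay lower with siNOX4 and 2 that lay higher, where 8.7% and 7.87% of all genes did so. The 8 were HSPA5, DNAJB11, CALR, PDIA4, PDIA6, EDEM2, DERL2 and XBP1, and the 2 were ERO1A and ERO1B. For HSPA5 the mean was 753 ± 29 CPM with siNOX4 and 825 ± 17.6 CPM with siControl (log2 fold change -0.13, SE 0.16), and for ERO1A it was 427 ± 6.71 CPM with siNOX4 and 393 ± 22.9 CPM with siControl (0.12, SE 0.21).

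Silencing NOX4 in normoxia gave 5 member calls, each at an adjusted p between 0.0406 and 0.0494. HSP90B1 (log2 fold change 0.37, SE 0.12, adjusted p = 0.0481) and ERO1A (0.70, SE 0.21, adjusted p = 0.0440) were called higher with siNOX4. EDEM3 (-0.67, SE 0.19, adjusted p = 0.0406), EIF2AK3 (-0.48, SE 0.15, adjusted p = 0.0494) and XBP1 (-0.40, SE 0.12, adjusted p = 0.0440) were called lower. These were 2 higher and 3 lower of 33 members, against 3.97% and 11.0% of all genes. For HSP90B1, EIF2AK3 and XBP1 every siNOX4 library lay outside the siControl range, while for ERO1A and EDEM3 the groups overlapped. Set against replicate 2 alone, no member was called, and 0.0483% of all genes were. The same 5 log2 fold changes were then 0.09, 0.12, -0.07, -0.09 and -0.09, with adjusted p of 0.88 to 0.97. Each of the 5 calls held in 1 of the 12 fits that left out 1 library, the fit without siControl normoxia replicate 2. Leaving out any other single library, from whichever group, ended all 5. In the authors' deposited table, no member had an adjusted p under 0.05 for siNOX4 against siControl in normoxia, where 2.37% of its genes did, or in hypoxia, where 0.149% did.

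**Figure D4:**
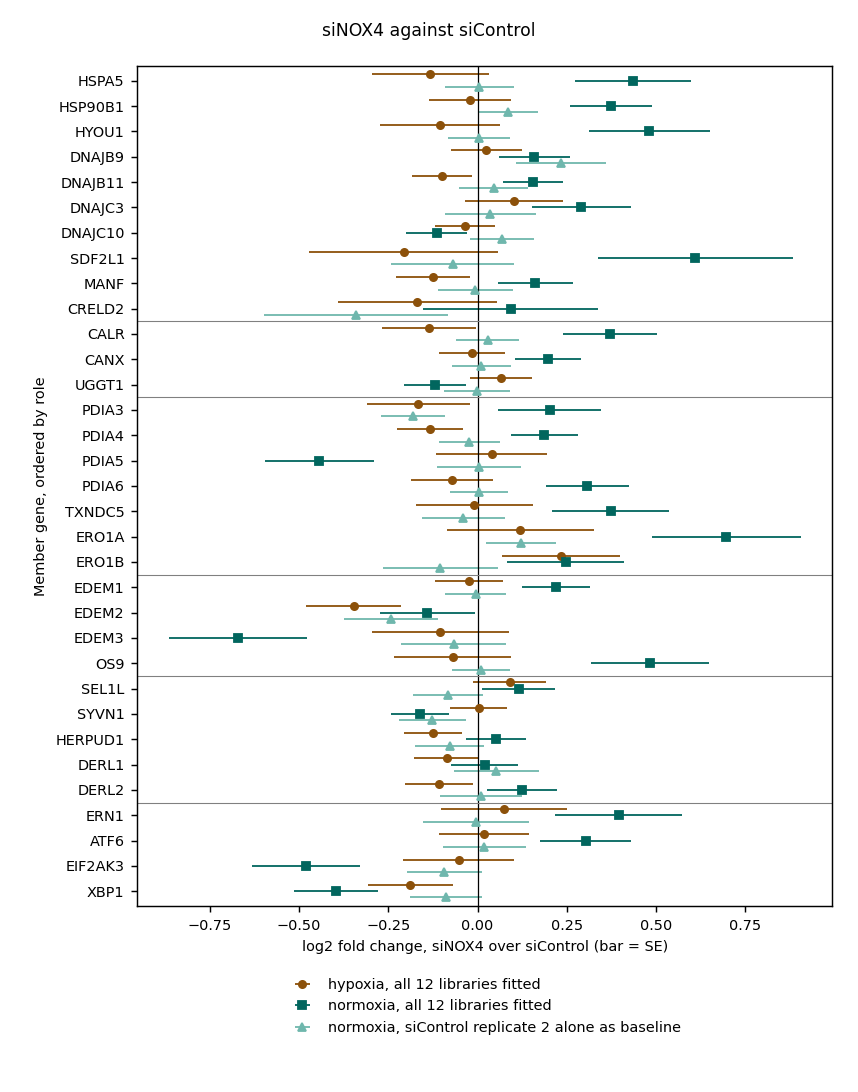
Log2 fold change of each tested member, siNOX4 over siControl, with its standard error, in hypoxia, in normoxia with all libraries fitted, and in normoxia with siControl replicate 2 alone as baseline. Values in hypoxia lie between -0.35 and 0.23, and those in normoxia move towards 0 with replicate 2 alone.

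The test of whether the hypoxia effect differed between siNOX4 and siControl cells called 0 members by edgeR's quasi-likelihood test (0.0% of all genes) and by DESeq2 and limma-voom, with 8 members at an unadjusted p under 0.05. By edgeR's test 3609 of all 17277 genes also had an unadjusted p under 0.05, and whether the members differ from that share was not tested. The 8 members were HSPA5, HSP90B1, HYOU1, CALR, PDIA4, PDIA5, PDIA6 and OS9. The difference of log2 fold changes, siNOX4 minus siControl, ran from -0.59 (HYOU1, SE 0.24, adjusted p = 0.214) to 0.48 (PDIA5, SE 0.22, adjusted p = 0.232) among them. With replicate 2 alone it was -0.11 for HYOU1, -0.14 for HSPA5 and 0.03 for PDIA5, and no member reached an unadjusted p under 0.05. Other fits did call members. The fit without siControl normoxia replicate 2 called 4 members higher and 17 lower, where 4011 and 3685 of all 17960 genes tested were called. The fit with no filter on low counts called 6 members lower, where 715 of 37380 genes were, and 0 higher, where 1392 were. Whether calls made in 1 siRNA and missed in the other, such as those of HSPA5, HYOU1 and PDIA6, differ between the siRNAs thus depends on the control libraries and the filter.

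Genes around the module were read from lists of neighbouring functions, with the same background shares of all genes as above. Of 18 other disulphide enzymes, 16 were tested, of which 7 were called higher and 3 lower in hypoxic siNOX4 cells, and 9 higher and 3 lower in hypoxic siControl cells (9 higher and 1 lower with replicate 2 alone). P4HB, the archetypal protein disulphide isomerase and a subunit of collagen prolyl hydroxylases, was at 786 ± 31.1 CPM in siNOX4 hypoxia, against 467 ± 11.8 CPM in siNOX4 normoxia (log2 fold change 0.75, SE 0.13, adjusted p = 3.4e-04). In siControl cells P4HB was at 834 ± 28.0 CPM in hypoxia, against 391 ± 88.4 CPM in normoxia (1.09, SE 0.13, adjusted p = 2.3e-05), with 0.76 (adjusted p = 4.6e-07) for replicate 2 alone. It thus rose together with ERO1A while PDIA5 fell. Of 22 other ERAD genes, 6 were called higher and 7 lower in siNOX4 cells, and 4 higher and 7 lower in siControl cells (8 higher and 9 lower with replicate 2 alone). UBE2G2, a ubiquitin-conjugating enzyme of ERAD, fell by 0.70 in siNOX4 cells (adjusted p = 2.9e-05) and by 0.52 in siControl cells (adjusted p = 2.7e-04), or 0.63 with replicate 2 alone.

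Of 18 KDEL receptor and COPII genes, which retrieve ER chaperones and carry cargo out of the ER, 16 were called lower and 0 higher in siNOX4 cells by edgeR's test, with no further gene at an unadjusted p under 0.05. In siControl cells 10 were called lower and 2 higher, and 16 lower and 2 higher with replicate 2 alone. SEC23A, a subunit of the COPII coat, was at 71.4 ± 1.10 CPM in siNOX4 hypoxia, against 141 ± 1.08 CPM in siNOX4 normoxia, and at 72.0 ± 3.56 CPM in siControl hypoxia, against 157 ± 18.8 CPM in siControl normoxia. Of 17 N-glycosylation genes, 10 were called lower and 1 higher in siNOX4 cells, and 4 lower and 4 higher in siControl cells. In siControl cells replicate 2 alone gave 9 lower and 1 higher, near the count of siNOX4 cells. DPAGT1, which starts the glycan, fell by 0.66 in siNOX4 cells (adjusted p = 7.4e-05) and by 0.87 in siControl cells (adjusted p = 1.0e-05), or 0.78 with replicate 2 alone. Of 24 translocon and signal peptidase genes, 8 were called lower and 2 higher in siNOX4 cells, and 8 lower and 7 higher in siControl cells (6 lower and 8 higher with replicate 2 alone). The 14 tested genes of the HIF list gave the check on oxygen. By edgeR's test 9 were called higher and 0 lower in siNOX4 cells, and 12 higher and 0 lower in siControl cells. No further gene had an unadjusted p under 0.05 by that test. Without overlap of libraries, 12 genes lay higher and 1 lower in hypoxic siNOX4 cells, and 12 higher and 0 lower in hypoxic siControl cells. The numbers of calls thus do not show a weaker response with siNOX4. In siControl cells replicate 2 alone gave 11 higher and 1 lower.

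PERK acts through ATF4, a factor that is translated when eIF2 alpha is phosphorylated. Of 16 ATF4 targets, 8 were called higher and 4 lower in siNOX4 cells, and 7 higher and 2 lower in siControl cells (9 higher and 3 lower with replicate 2 alone). TRIB3, a pseudokinase and known ATF4 target, was at 358 ± 29.5 CPM in siNOX4 hypoxia, against 126 ± 2.55 CPM in siNOX4 normoxia, and at 416 ± 27.0 CPM in siControl hypoxia, against 136 ± 8.77 CPM in siControl normoxia. CHAC1, a glutathione-degrading enzyme, was at 116 ± 10.4 CPM in siNOX4 hypoxia, against 2.91 ± 0.927 CPM in siNOX4 normoxia. In siControl normoxia CHAC1 was higher and more spread, at 9.32 ± 5.58 CPM. By edgeR's test it was called lower with siNOX4 in normoxia (log2 fold change -1.67, SE 0.39, adjusted p = 0.0302). Against replicate 2 alone that log2 fold change was -0.34. STC2, a secreted glycoprotein, rose by 1.68 in siNOX4 cells (adjusted p = 1.8e-06) and by 2.01 in siControl cells (adjusted p = 5.4e-07), or 1.67 with replicate 2 alone. Of 9 tested sensor partners and ER transcription factors, 3 were called higher and 1 lower in siNOX4 cells, and 2 higher and 1 lower in siControl cells (4 higher and 2 lower with replicate 2 alone). The one called lower with all libraries was CREB3L2, an ER-bound factor, at 18.9 ± 2.63 CPM in siNOX4 hypoxia, against 73.2 ± 3.77 CPM in siNOX4 normoxia, and at 17.4 ± 1.12 CPM in siControl hypoxia, against 64.7 ± 12.5 CPM in siControl normoxia.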

How the data were processed

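Library preparation used Illumina's TruSeq RNA kit, per the labels' protocols; the kit is taken as unstranded, so overlapping genes on opposite strands share reads. Whole-number counts of each gene, as deposited by the authors, were used for every test. The same table held FPKM values made by the authors from gene length, their log2 fold changes between groups and their p-values and adjusted p-values, per the file headers. A further 8 columns of group means by the authors were not used. Bowtie 0.12.2 and the mouse builds mm8 and mm9 stand in the submitters' processing notes without a role; the sources used here name no counter, annotation or test. Of 58735 genes, 58724 had the identifier, start and end of GENCODE 29, and dates stood for 12 gene names.

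Counts were fitted in R 4.3.3 with edgeR 4.0.16 (TMM factors 0.903 to 1.09, filterByExpr by group, all 12 libraries in 1 fit with 1 mean for each group, quasi-likelihood F test, two-sided, Benjamini-Hochberg over 17277 genes, called at an adjusted p under 0.05; 8 residual and 4.63 prior degrees of freedom, common biological coefficient of variation 0.164). Levels are TMM-scaled CPM, with their SD over 3 libraries. Depth was 16559386 to 21282835 counts per library. P-values measure the spread between transfections of 1 line.

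Members may all be named. Values in every library were due for members called in hypoxia with an absolute log2 fold change of at least 0.58, or called for siNOX4. From each list of neighbouring functions, written from textbook knowledge, up to 3 called genes of smallest p and the highest uncalled gene could be named. Members, lists and tests were chosen with earlier results of these data known.

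Alternatives were DESeq2 size factors and upper-quartile scaling, no filter, at least 5 CPM in 3 libraries, a replicate block, DESeq2 1.42.0, limma-voom (limma 3.58.1), fits of only the compared groups, and each library left out. Added after the data were seen were siControl normoxia with replicate 2 alone, no siControl normoxia library, and limma-voom with a weight per group. The lone library is assumed to vary like the other groups. RefSeq promoter windows (GRCh38.p14) were matched by symbol.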

Additional observations from a re-analysis of the deposited data

How the results depend on the processing

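Results depended on which siControl normoxia libraries were fitted. With replicate 2 alone, members called lower by hypoxia in siControl cells went up to 11, against 6 with all libraries. HYOU1 and TXNDC5 then reversed to -0.41 and -0.34, and siNOX4 in normoxia called 0 higher and 0 lower. In siNOX4 cells that fit, like the fit with no siControl normoxia library, called 18 members lower, and a voom weight per group called 17, against 10. Leaving out 1 library gave, for hypoxia in siControl cells, 7 to 15 members higher and 3 to 6 lower, and in siNOX4 cells 7 to 17 lower. It gave 0 to 20 higher and 0 to 5 lower for siNOX4 in normoxia, and 0 to 4 higher and 0 to 17 lower for the interaction, with each upper end without siControl normoxia replicate 2. That fit called 4792 of all 17960 genes higher and 5074 lower for siNOX4 in normoxia, and 4011 and 3685 for the interaction. For hypoxia it gave 15 members and 5633 genes higher in siControl cells, and 17 members and 5965 genes lower in siNOX4 cells. Fitting only the compared groups gave 3 members lower for hypoxia in siControl cells, where 3664 of 16196 genes were called lower. For siNOX4 in normoxia it gave 0 members either way, and 0 of 15734 genes. For siNOX4 in normoxia, limma-voom gave 0 either way, a voom weight per group 0 lower, no filter 7 higher, DESeq2 6 higher, and upper-quartile scaling 1 lower, against 2 higher and 3 lower. Of all genes, 1929 of 37380 were called higher for siNOX4 in normoxia with no filter, and 1636 of 15928 by DESeq2. There limma-voom called 5 higher and 4 lower of 17277 genes, a voom weight per group 836 lower, and upper-quartile scaling 1493 lower. For hypoxia in siNOX4 cells the voom weight per group called 5761 of 17277 genes lower. With no filter the interaction called 6 members lower, beside 715 of 37380 genes. The causes were not tested.

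The replicate block left 1 member lower for siNOX4 in normoxia, where 1743 of 17277 genes were called lower, and moved no other count by over 1.5 times. Same-numbered libraries correlated at -0.0259 to 0.15 in their deviations from the group means. The highest values, 0.15 and 0.139, were those of replicates 2 and 3 between the siRNAs in normoxia. With 3 libraries per group this cannot decide whether equal numbers mark a shared transfection, which the labels do not state. Of single log2 fold changes under the alternatives listed first, 3040 were unchanged, 92 gained a call and 135 lost one. Under those added, 342 were unchanged, 35 gained a call, 17 lost one and 2 reversed. A value called in neither fit counted as unchanged, so these numbers do not give the share of calls that held. Depth limits DERL3, at 1 to 14 counts per library, and NOX4 itself.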

Other observations

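The cytosolic chaperones, which fold proteins outside the ER, were read as a further list of 14 genes, all tested. In hypoxic siNOX4 cells 8 were called lower and 0 higher, and in hypoxic siControl cells 5 lower and 0 higher (9 lower and 1 higher with siControl normoxia replicate 2 alone), by edgeR's test against the same 27.8% and 27.6% of all genes called lower. HSP90AB1, the main cytosolic Hsp90, was at 1423 ± 77.9 CPM in siNOX4 hypoxia, against 2255 ± 96.7 CPM in siNOX4 normoxia (log2 fold change -0.66, SE 0.11, adjusted p = 2.5e-04). CCT2 and CCT5, subunits of the chaperonin that folds actin and tubulin, fell by 0.68 and 0.76 in siNOX4 cells (adjusted p = 1.9e-04 and 1.4e-04). HSPH1, the cytosolic nucleotide exchange factor that matches HYOU1 in the ER, was at 100.05 ± 1.2 CPM in siControl hypoxia, against 689.8 ± 396 CPM in siControl normoxia. Its log2 fold change was -2.79 with all libraries and -1.23 (adjusted p = 2.7e-09) with siControl normoxia replicate 2 alone.

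PRDX4, the ER peroxiredoxin that consumes the hydrogen peroxide made by ERO1 oxidases, was the 1 gene of the 16 tested other disulphide enzymes called for siNOX4 in normoxia. PRDX4 was at 65.8 ± 5.19 CPM with siNOX4 and at 26.2 ± 15 CPM with siControl (log2 fold change 1.33, SE 0.27, adjusted p = 0.0302). Against replicate 2 alone it was 0.60 (adjusted p = 0.096).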
